A study of Mus musculus with 7 samples.

Results

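Cadherins and desmosomes hold cells together, and 10 of their genes were followed over 7 mouse expression arrays. They are the classical cadherins Cdh1, Cdh2, Cdh3 and Cdh11, the desmosomal cadherins Dsg2 and Dsc2, and the desmosomal plaque genes Dsp, Jup, Pkp1 and Pkp3. A row of the array belonged to a member if the platform annotation gave that gene as its only symbol. Each of the 10 genes had 1 such row, out of 13562 genes with a row of 1 symbol.

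Classical cadherins join neighbouring cells through like-to-like binding outside the cell, and their tails hold catenins that reach the actin skeleton. Desmosomes are built on the same plan: desmogleins and desmocollins span the gap, plakoglobin and plakophilins bind their tails, and desmoplakin ties the plaque to keratin filaments. Fibroblasts typically carry Cdh2 and Cdh11, epithelia and embryonic stem cells Cdh1. The exchange of one set for the other is known as the cadherin switch, and fibroblasts pass through its epithelial direction early in reprogramming.

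The study compared V6.5 embryonic stem cells (ESCs), either Utx +/Y (wild type, WT) or Utx -/Y (knockout, KO), and mouse embryonic fibroblasts (MEFs) of both genotypes. The MEFs, called V19-OSKM in the labels, were profiled without and with doxycycline (DOX). DOX was given to start reprogramming by Oct4, Sox2, Klf4 and Myc (OSKM) in MEFs of both genotypes. The Pou5f1 values of the KO libraries, given below, went against their DOX labels. The last array held MEFs made from Nanog -/- ESCs and transduced with an OSKM lentivirus for 8 days, without a Utx deletion in the labels. The growth protocol given with every sample describes ESC culture in 2i/LIF medium and names no separate MEF medium. The duration of DOX and the embryos' age: not given in the sources used here.

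Each condition was 1 array, so differences have no replicate check, no standard error and no p-value. Values are deposited log2 values. A gene was counted as higher or lower where 2 arrays differed 2-fold or more and the higher value exceeded a floor of 7.34, the 40th percentile of all values. Where the lower side lay under the floor, a fold is given as at least the fold over the floor. In these bulk samples fewer cells of a type and less RNA per cell cannot be told apart.

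Kdm6a, the gene of Utx, was lower in the library labelled KO in each pair: 9.12 against 7.97 for ESCs, 8.22 against 6.32 for MEFs labelled as without DOX and 8.93 against 7.57 for those labelled as with it. It read 9.08 on the Nanog KO array, where Nanog itself read 6.56, against 12.28 in WT ESCs and 5.43 in uninduced WT MEFs. The 2 KO MEF libraries went against their DOX labels. Pou5f1, which encodes Oct4, read 11.26 in the library labelled KO and no DOX and 5.12 in the one labelled KO with DOX, against 8.19 and 12.59 in WT MEFs. Both are named by their labels below, and the comparisons among ESCs, WT MEFs and the Nanog KO array use neither of them. Array medians were 7.68 to 7.84 on 6 arrays and 8.55 on the Nanog KO array. All 12 ESC markers lay above the floor in both ESC libraries and 1 to 3 of them elsewhere. Of 15 fibroblast markers, 15 lay above it in both MEF libraries without DOX, in the library labelled KO with DOX and on the Nanog KO array, 8 in WT MEFs with DOX, 10 in WT ESCs and 2 in KO ESCs.

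Cdh1, E-cadherin, the adhesion molecule of epithelia and of the early embryo, had one of the widest spans on the arrays. It read 10.89 in WT ESCs, 10.75 in KO ESCs, 5.79 in WT MEFs without DOX, 9.54 for the library labelled KO without DOX, 11.74 in WT MEFs with DOX, 5.52 in the library labelled KO with DOX and 8.44 on the Nanog KO array. WT MEFs with DOX stood highest, above both ESC libraries. The range of 6.22 was wider than that of 99.1% of genes. WT MEFs without DOX and the library labelled KO with DOX were the arrays below the floor.

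Cdh3, P-cadherin, found in placenta and in basal epidermis, ran the other way. Its values were 7.10 in WT ESCs, 7.16 in KO ESCs, 9.33 in WT MEFs without DOX, 8.25 for the library labelled KO without DOX, 6.94 in WT MEFs with DOX, 10.04 in the library labelled KO with DOX and 8.04 on the Nanog KO array. The order of the arrays was nearly that of Cdh1 turned over, with WT MEFs with DOX lowest. Over the 7 arrays the values of Cdh1 and Cdh3 had r = -0.971, as a description of arrays that differ in cell type, genotype and scale. The genes lie next to each other, with 0 protein-coding genes between them in the RefSeq annotation of GRCm38.p6.

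Cdh11, a cadherin of mesenchymal cells and bone-forming cells, was high on the 4 arrays where 15 of 15 fibroblast markers lay above the floor. It read 12.21 in WT MEFs without DOX, 12.03 for the library labelled KO without DOX, 12.66 in the library labelled KO with DOX and 12.18 on the Nanog KO array. The values were 8.65 in WT MEFs with DOX, 9.09 in WT ESCs and 6.5 in KO ESCs, the array on which it lay below the floor. The 4 high arrays were within 0.62 of each other, and a gap of 2.94 separated them from the next, WT ESCs.

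Cdh2, N-cadherin, the partner of Cdh1 in the textbook switch, stayed above the floor on all 7 arrays. It read 8.65 in WT ESCs, 8.09 in KO ESCs, 8.96 in WT MEFs without DOX, 8.94 for the library labelled KO without DOX, 8.07 in WT MEFs with DOX, 10.18 in the library labelled KO with DOX and 9.25 on the Nanog KO array. Its range of 2.12 was far narrower than that of Cdh1 or Cdh11. With the arrays sorted by their Cdh2 value, neighbouring values lay 0.01 to 0.93 apart, with no repeated array to set those gaps against.

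**Figure D1:**
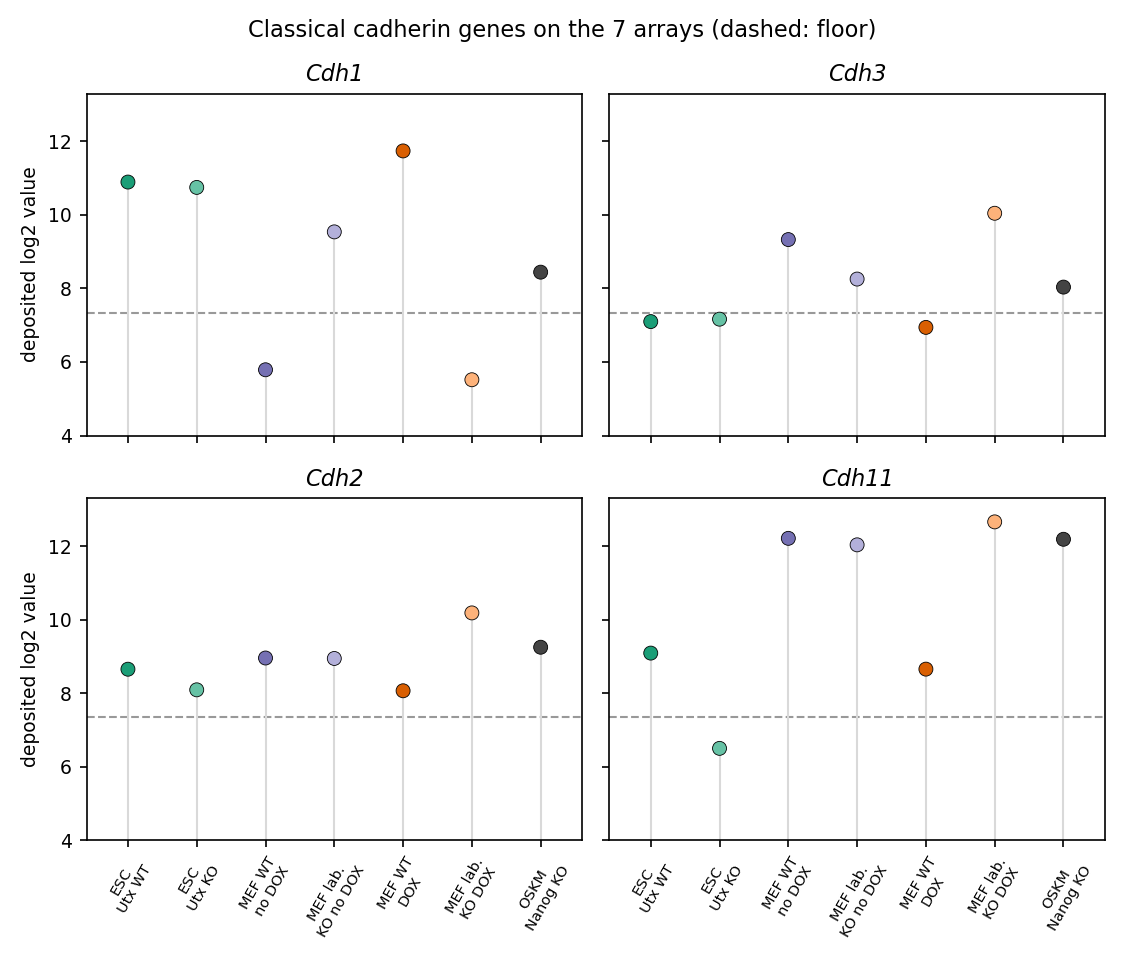
Deposited log2 values (y axis) of the 4 classical cadherin genes on each of the 7 arrays (x axis), 1 point per array, with the floor of 7.34 as a dashed line. Cdh1 is highest in WT MEFs with DOX at 11.74, where Cdh3 is lowest at 6.94, and Cdh2 stays between 8.07 and 10.18.

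The desmosome genes split by whether ESCs carried them. Dsg2, the desmoglein of simple epithelia and heart, read 8.78 in WT ESCs, 8.54 in KO ESCs and 8.77 in WT MEFs with DOX, and 5.03 in WT MEFs without DOX, 5.60 for the library labelled KO without DOX, 5.02 in the library labelled KO with DOX and 6.46 on the Nanog KO array. WT MEFs with DOX thus stood at the ESC value, and the other 4 arrays lay below the floor.

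Dsc2, the desmocollin that pairs with desmogleins, was below the floor in ESCs. It read 4.90 in WT ESCs, 4.74 in KO ESCs, 4.82 in WT MEFs without DOX, 5.82 for the library labelled KO without DOX, 9.15 in WT MEFs with DOX, 4.56 in the library labelled KO with DOX and 8.53 on the Nanog KO array. WT MEFs with DOX and the Nanog KO array were the ones above the floor.

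Pkp1, a plakophilin abundant in stratified epithelia, had the same pair on top. Its values were 6.13 in WT ESCs, 5.95 in KO ESCs, 6.61 in WT MEFs without DOX, 7.74 for the library labelled KO without DOX, 10.75 in WT MEFs with DOX, 5.93 in the library labelled KO with DOX and 10.75 on the Nanog KO array. Pkp3, a plakophilin of most epithelia, had a small range: 6.48 in WT ESCs, 6.65 in KO ESCs, 6.33 in WT MEFs without DOX, 6.77 for the library labelled KO without DOX, 7.91 in WT MEFs with DOX, 6.35 in the library labelled KO with DOX and 7.52 on the Nanog KO array. It passed the floor on 2 arrays, again WT MEFs with DOX and the Nanog KO array. Over the 7 arrays Dsc2 and Pkp1 had r = 0.990, Dsc2 and Pkp3 0.981, and Dsc2 and Dsg2 0.284, all as descriptions.

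Dsp, desmoplakin, the link from the plaque to keratin filaments, had the widest range of the 10 genes, 6.73. It read 7.80 in WT ESCs, 6.30 in KO ESCs, 5.56 in WT MEFs without DOX, 7.64 for the library labelled KO without DOX, 11.92 in WT MEFs with DOX, 5.19 in the library labelled KO with DOX and 8.78 on the Nanog KO array. WT MEFs with DOX stood 3.14 above the next array. Jup, plakoglobin, which serves both desmosomes and classical cadherins, was above the floor everywhere. It read 11.08 in WT ESCs, 10.92 in KO ESCs, 10.11 in WT MEFs without DOX, 9.96 for the library labelled KO without DOX, 12.39 in WT MEFs with DOX, 9.89 in the library labelled KO with DOX and 10.81 on the Nanog KO array. The 3 lowest arrays were the other MEF libraries, with gaps of 0.16 and 0.07 between them.

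**Figure D2:**
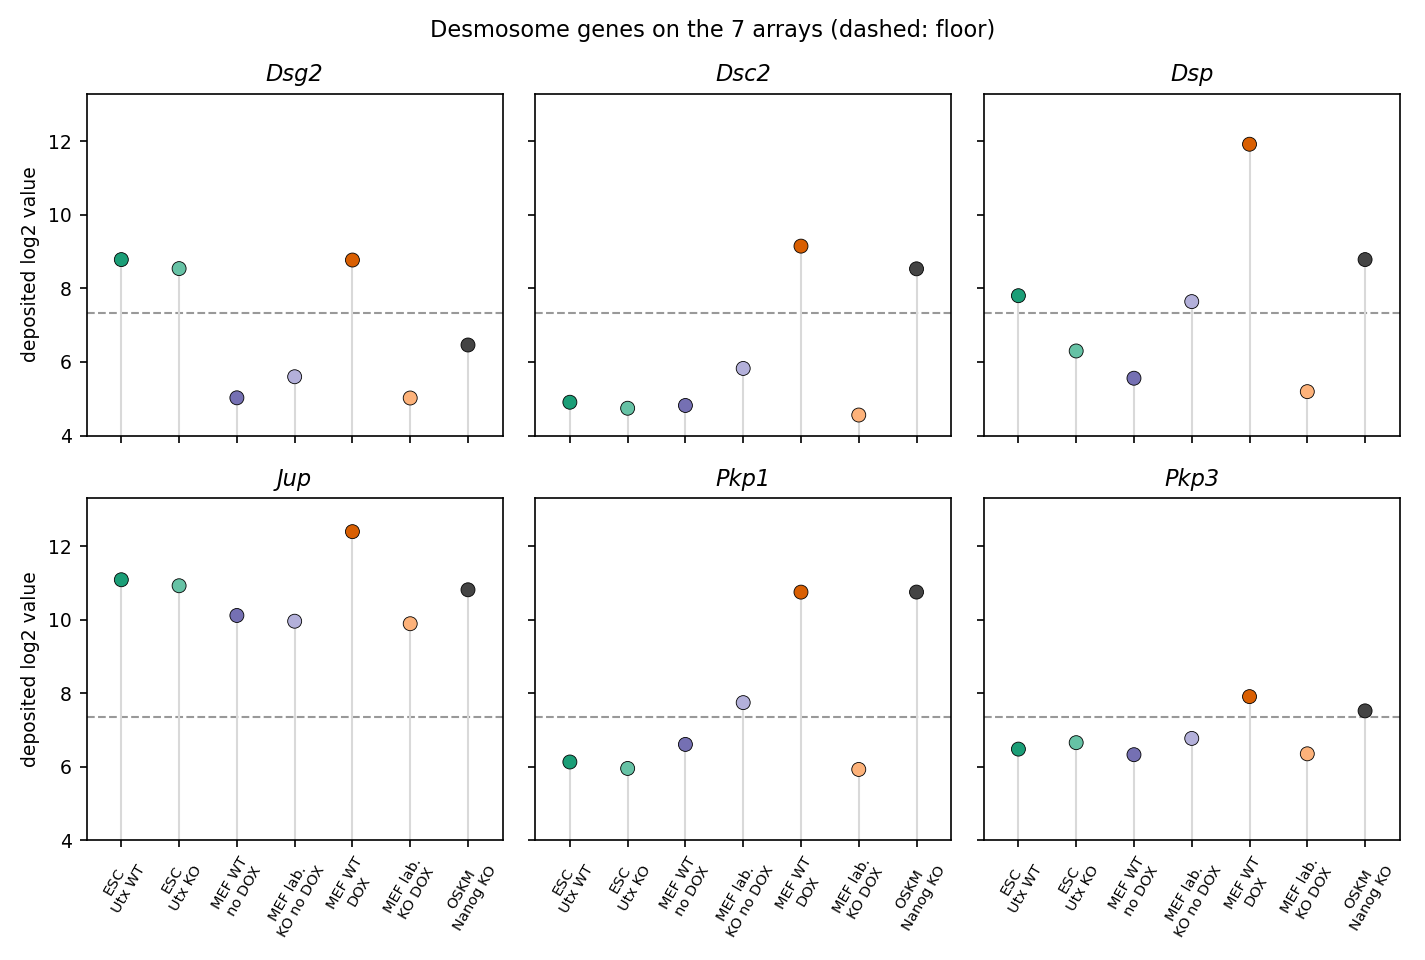
Deposited log2 values (y axis) of the 6 desmosome genes on each of the 7 arrays (x axis), 1 point per array, with the floor of 7.34 as a dashed line. Dsc2, Pkp1 and Pkp3 are above the floor in WT MEFs with DOX and on the Nanog KO array but below it in both ESC libraries, whereas Dsg2 is above it in both. On the Nanog KO array 76.8% of all genes lie above the floor, and Pkp3 stands at -1.03 from the array median.

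Dsp and Jup were both higher with DOX in WT MEFs and are the 2 members whose promoters RefSeq's table for GRCm38.p6 held here, so their upstream sequence is shown. The sequence of Dsp, chr13:38151044-38151293 on the + strand, ends at the base before the start. That of Jup, chr11:100397840-100398040 on the - strand, stops short of the start, at the edge of the annotated gene span. Capitals mark GC boxes, GGGCGG or its reverse complement CCGCCC, letters bound by Sp and Klf family factors.
Dsp: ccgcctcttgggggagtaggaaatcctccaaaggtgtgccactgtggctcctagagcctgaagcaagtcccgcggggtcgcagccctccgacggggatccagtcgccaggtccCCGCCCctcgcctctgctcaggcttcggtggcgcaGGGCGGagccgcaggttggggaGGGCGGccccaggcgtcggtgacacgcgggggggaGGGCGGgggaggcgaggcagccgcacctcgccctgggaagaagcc
Jup: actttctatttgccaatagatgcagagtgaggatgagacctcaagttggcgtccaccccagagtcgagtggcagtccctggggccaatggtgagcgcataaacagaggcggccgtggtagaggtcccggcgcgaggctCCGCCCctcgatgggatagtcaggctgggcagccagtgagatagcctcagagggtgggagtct

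Over the 250 bases before the start, searched on both strands, Dsp had 4 GC boxes, the nearest beginning 45 bases before the start and the farthest 137. Jup had 2, at 112 and 42 bases, the latter in the searched stretch nearest the start, which is not part of the sequence shown. Of 32544 distinct promoter sequences in the table, 33.0% held at least 1 GC box, 16.9% at least 2 and 4.12% at least 4. Neither window held CAGGTG, the E-box form bound by Snail and Zeb repressors, which 17.3% of promoters held, nor any CANNTG, which includes it and which 66.2% held, nor the Grainyhead-like form AACNNGTT, found in 3.63%. CCAAT occurred in Jup, at 238 and 167 bases before the start, not in Dsp, and in 33.8% of all promoters. These are matches of letters and not sites of binding.

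WT MEFs with DOX were set against WT MEFs without it, 1 array each, both of normal Utx genotype. Of the 10 genes, 7 were higher with DOX, 2 were lower and Cdh2 lay within 2-fold, against 25.6% of 9524 genes tested that differed either way (11.9% higher, 13.7% lower). Dsp differed by 6.36 (at least 23.9-fold), more than 99.9% of those genes. Cdh1 differed by 5.95 (at least 21.1-fold), Dsc2 by 4.33 (at least 3.51-fold), Pkp1 by 4.14 (at least 10.6-fold), Dsg2 by 3.75 (at least 2.70-fold), Jup by 2.28 (4.85-fold) and Pkp3 by 1.58 (at least 1.48-fold). All 6 desmosome genes were thus on the higher side. Downwards, Cdh11 differed by -3.56 (11.8-fold) and Cdh3 by -2.39 (at least 3.97-fold), while Cdh2 differed by -0.89, which passed only at a threshold of 1.5-fold.

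Other parts of the junction went the same way. Of 6 measured other desmosome genes, 5 lay above the floor, 4 of these were higher and 0 lower, with a median difference of 2.65 over the 6 against 0.00 over all genes tested. Dsg3, the desmoglein of basal epidermis, read 4.09 without and 9.36 with DOX. Perp, a membrane protein of desmosomes, read 7.30 and 12.01, and the plakins Ppl and Evpl differed by 2.89 and 2.41. Keratins, the filaments that desmosomes anchor, were higher for 6 of the 6 above the floor (7 measured, median 3.32), with Krt14, a keratin of basal epidermis, at 6.38 and Krt8, a keratin of simple epithelia, at 6.29.

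Catenins and nectins, which serve adherens junctions in most cell types, moved less: 4 of 15 above the floor were higher and 1 was lower, with a median of 0.66 over 17. Nectin4, an epithelial nectin, differed by 2.76, the delta-catenin gene Ctnnd2 by 2.68, and Afdn, which ties nectins to actin, by 2.22, against -1.79 for Vcl, vinculin. The shared catenins Ctnna1, Ctnnb1 and Ctnnd1 differed by 0.73, -0.28 and 0.13. Among 10 other cadherins measured, 3 lay above the floor. Cdh13, a cadherin held by a lipid anchor with no tail, differed by 2.98 and the neuronal cadherin Cdh10 by -2.04.

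The list of Cdh1 repressors and that of epithelial regulators stood on opposite sides. Of 8 Snail, Zeb, Twist and E protein genes above the floor (9 measured, median -2.18), 7 were lower with DOX and 0 higher. Snai2 differed by -3.75, Zeb2 by -3.26, Twist2 by -2.87 and Snai1 by -2.21, all known to repress Cdh1 or to go with its loss. Of 9 epithelial regulators above the floor (14 measured, median 1.94), 7 were higher and 0 lower, among them Ehf at 5.44 and Grhl3 at 4.78. Epithelial markers were higher for 14 of 14 above the floor, and 11 of 15 fibroblast markers and 11 of 12 leukocyte markers were lower. The summed log2 level of the fibroblast list was 170.7 without and 123.1 with DOX, and that of the leukocyte list 115.4 and 69.6. Their part in the cadherin values was not tested.

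**Figure D3:**
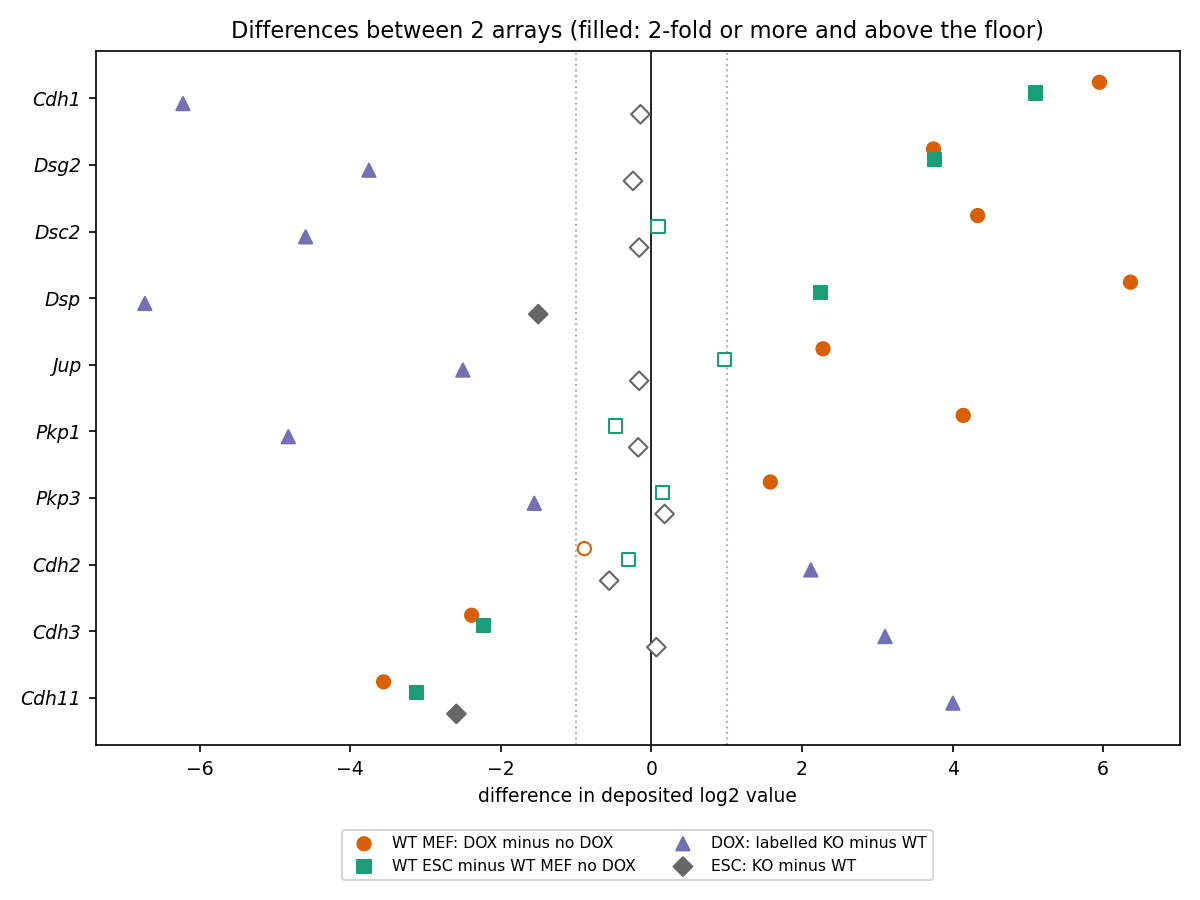
Differences in deposited log2 value (x axis) of the 10 genes (y axis) in 4 comparisons of 2 arrays each, filled where 2-fold or more with the higher value above the floor, dotted lines at 2-fold. In the plot, 7 genes lie to the right for DOX in WT MEFs, and the same 7 to the left for the library labelled KO against WT with DOX. Those comparisons share the array of WT MEFs with DOX.

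Set against uninduced fibroblasts, WT ESCs had part of this junction set. Among the 10 genes, 3 were higher in ESCs and 2 lower, against 34.3% of 9673 genes that differed either way (14.5% higher, 19.8% lower). Cdh1 differed by 5.10 (at least 11.7-fold), Dsg2 by 3.76 (at least 2.72-fold) and Dsp by 2.24 (at least 1.38-fold), and Cdh11 by -3.12 (8.70-fold) and Cdh3 by -2.23 (at least 3.97-fold). Jup, at 0.97, and Cdh2, at -0.30, lay within 2-fold, and Dsc2, Pkp1 and Pkp3 were below the floor in both. Of 8 Cdh1 repressor genes above the floor, 6 were lower in ESCs, such as Zeb2 at -3.33.

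WT MEFs with DOX, in turn, carried more desmosome RNA than ESCs. In WT ESCs 5 of the 10 genes were lower than in these MEFs and 0 higher, against 30.3% of 9463 genes either way (13.6% higher, 16.7% lower). All 5 were desmosome genes: Pkp1 by -4.62 (at least 10.6-fold), Dsc2 by -4.24 (at least 3.51-fold), Dsp by -4.12 (17.4-fold), Pkp3 by -1.43 (at least 1.48-fold) and Jup by -1.31 (2.48-fold). Dsg2 differed by 0.01 and Cdh1 by -0.85. Of the other desmosome genes, 4 of 5 above the floor were lower in ESCs, Dsg3 by -5.08.

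Between the ESC libraries, Cdh11 and Dsp differed and the rest of the set did not reach 2-fold. Cdh11 was at least 3.36-fold lower in KO than in WT ESCs (difference -2.59) and Dsp at least 1.38-fold lower (-1.50), so 2 of 10 genes were lower and 0 higher, against 3.83% of 8598 genes either way (0.651% higher, 3.18% lower). Cdh1 differed by -0.15, Dsg2 by -0.24, Jup by -0.16 and Cdh2 by -0.56, and Cdh3, Dsc2, Pkp1 and Pkp3 lay below the floor in both. Of 3 keratins above the floor, 7 measured, 2 were lower, Krt18 by -2.15 and Krt8 by -1.83, and Krt17 differed by 0.79, within 2-fold. Of 10 fibroblast markers above the floor, 9 were lower in KO ESCs, their summed level over 15 being 121.1 in WT and 94.9 in KO ESCs, and their part in the Cdh11 value was not tested.

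For MEFs labelled as without DOX, more Cdh1 RNA was read in the KO than in the WT library. Of the 10 genes, 3 were higher, each with the WT value under the floor. These were Cdh1 by 3.75 (at least 4.59-fold), Dsp by 2.08 (at least 1.23-fold) and Pkp1 by 1.14 (at least 1.32-fold). Cdh3 was lower by -1.07 and the others lay within 2-fold or below the floor. These counts compare with 14.6% of 9253 genes either way (5.04% higher, 9.53% lower). Over all genes 466 were higher and 882 lower, or 677 and 685 with the array medians aligned, the median gene being at -0.11 as deposited. Aligned medians brought Cdh3 within 2-fold, at -0.94. Cdh11, at -0.18, and Cdh2, at -0.01, were at the WT value. Thus Cdh1 was above the floor here while Cdh11 and Cdh2 were near their values in WT MEFs without DOX. Neither WT MEF library showed this for Cdh1 and Cdh11, but the Nanog KO array did, with Cdh1 at 8.44 and Cdh11 at 12.18. Cdh2 did not set WT MEFs with DOX apart, differing there by -0.89 from WT MEFs without DOX, within 2-fold.

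Of 2 other desmosome genes above the floor, Perp was higher by 2.83 and Pkp2 differed by -0.17. Of 3 keratins, 1 was higher, Krt19 by 1.66, and Krt8 and Krt7 differed by 0.82 and -0.46. Of 3 other cadherins, Cdh13 was higher by 2.51, Cdh10 lower by -1.79 and Cdh6 at -0.99. Of 5 epithelial regulators, 3 were higher, Ehf by 3.72, Grhl3 by 2.62 and Tfap2a by 1.57, and 0 lower. Of 8 Cdh1 repressor genes above the floor, 4 were lower and 0 higher, Twist2 by -1.71 and Zeb2 by -1.46. Pou5f1 read 11.26 in this library. The summed level of the leukocyte list was 115.4 for WT against 81.7 here, and its part was not tested.

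With DOX, all 10 genes differed 2-fold or more between the library labelled KO and the WT library, against 26.4% of 9572 genes (14.3% higher, 12.1% lower). The 7 lower genes were Cdh1 and the 6 desmosome genes. Dsp differed by -6.73 (at least 23.9-fold), Cdh1 by -6.22 (at least 21.1-fold), Pkp1 by -4.82 (at least 10.6-fold) and Dsc2 by -4.59 (at least 3.51-fold). Dsg2 differed by -3.75 (at least 2.70-fold), Jup by -2.50 (5.67-fold) and Pkp3 by -1.56 (at least 1.48-fold). The 3 higher genes were Cdh11 by 4.0 (16.0-fold), Cdh3 by 3.10 (at least 6.51-fold) and Cdh2 by 2.12 (4.34-fold). Of 5 other desmosome genes above the floor, 4 were lower, Dsg3 by -5.27, as were 6 of 6 keratins, Krt8 by -7.27. Of 8 repressor genes 7 were higher, Snai2 by 4.08, and 0 lower. This pair shares the array of WT MEFs with DOX with the DOX comparison above, and its other library had the lowest Pou5f1 value, 5.12.

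Taking the labels of the KO MEFs as they stand, which fix each sign here, less Cdh1 and more Cdh3 and Cdh2 RNA was read with DOX than without. Cdh1 differed by -4.02 (at least 4.59-fold), Dsp by -2.45 (at least 1.23-fold) and Pkp1 by -1.82 (at least 1.32-fold). Cdh3 differed by 1.79 (3.46-fold) and Cdh2 by 1.24 (2.36-fold). In all, 5 of 10 genes differed, against 9.74% of 9119 genes (6.81% higher, 2.93% lower). Over all genes 621 were higher and 267 lower, or 481 and 378 with the medians aligned (median gene 0.13 as deposited), and none of the 10 calls changed with them. Cdh11 differed by 0.62 and Jup by -0.07. Dsg2, Dsc2 and Pkp3 were below the floor in both libraries. Of 2 other desmosome genes above the floor, Perp was lower by -2.61, and of 2 other cadherins, Cdh13 was lower by -2.18.

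The Nanog KO fibroblasts held RNA of both sides of the switch. Against WT MEFs with DOX, Cdh1 was lower by -3.30 (9.83-fold), Dsp by -3.14 (8.79-fold), Dsg2 by -2.31 (at least 2.70-fold) and Jup by -1.58 (2.99-fold). Cdh11 was higher by 3.53 (11.6-fold), Cdh2 by 1.18 (2.27-fold) and Cdh3 by 1.10 (at least 1.62-fold), while Pkp1 differed by 0.00, Pkp3 by -0.39 and Dsc2 by -0.62. These 7 of 10 genes compare with 42.7% of 10833 genes either way (37.2% higher, 5.53% lower), 4032 of them higher and 599 lower. The median gene differed by 0.76.

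With the array medians aligned, the same comparison gave 1281 genes higher and 1299 lower, and among the 10 genes 1 higher and 6 lower. Cdh11 was then higher by 2.79, and Cdh2, at 0.44, and Cdh3, at 0.36, lay within 2-fold. Dsc2, at -1.36, and Pkp3, at -1.13, became lower, and Pkp1, at -0.74, stayed within 2-fold.

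Against WT MEFs without DOX the Nanog KO array had 5 of the 10 genes higher and 1 lower, with 38.8% of 10740 genes either way (35.1% higher, 3.72% lower), 3773 higher and 399 lower. Pkp1 differed by 4.14 (at least 10.6-fold), Dsc2 by 3.72 (at least 2.29-fold), Dsp by 3.23 (at least 2.72-fold) and Cdh1 by 2.65 (at least 2.15-fold). Pkp3 differed by 1.19 (at least 1.13-fold) and Cdh3 by -1.29 (2.45-fold), against 0.73 for the median gene. Cdh11 differed by -0.03 and Cdh2 by 0.29. Aligned medians left 910 genes higher and 1064 lower and brought Pkp3 under the threshold. As deposited, this array alone among the 7 had Cdh11 near the value of WT MEFs without DOX and Dsc2 and Pkp1 within 2-fold of WT MEFs with DOX, which with aligned medians no longer held for Dsc2.

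In the repressor list, 7 of 8 genes above the floor were higher on the Nanog KO array than in WT MEFs with DOX, against 37.2% of all genes tested. Twist2 differed by 3.39 and Zeb2 by 3.13, and with aligned medians 6 of 8 were higher. Against WT MEFs without DOX, 2 of 8 were higher and 1 lower, with a median of 0.41 against 0.73 for the median gene. Against WT MEFs with DOX, other desmosome genes were lower for 4 of 5, Dsg3 by -3.97, and keratins for 6 of 6, under both scalings. Of 10 leukocyte markers above the floor, 10 were higher as deposited, with a median of 2.63 over 12 measured against 0.76 for the median gene. Their summed level was 107.5 against 69.6. The fibroblast list summed to 176.7 against 123.1, with a median difference of 3.44. Both sums are of deposited values and so include the higher median of the Nanog KO array. The part of either list in the Cdh11 value was not tested.

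**Figure D4:**
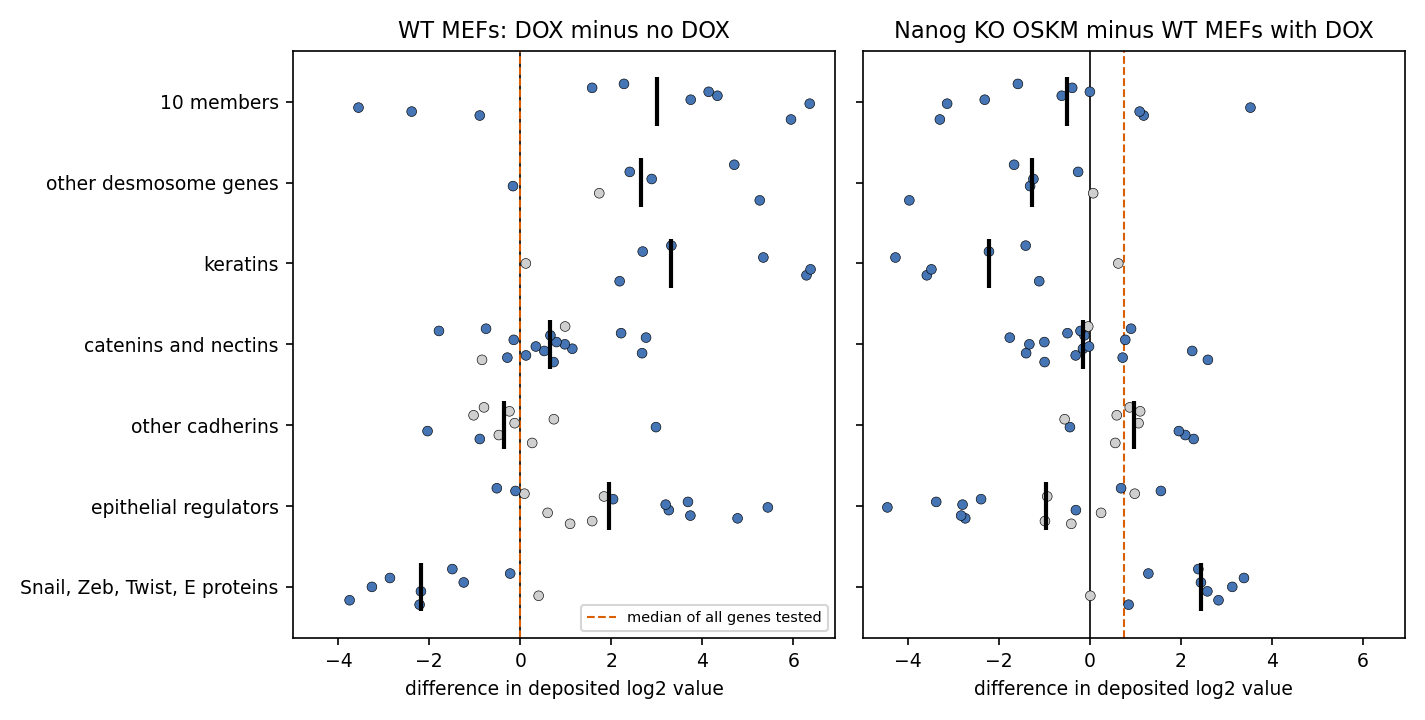
Differences in deposited log2 value (x axis) for the 10 genes and 6 related gene lists (y axis), 1 point per gene, grey where both values lie under the floor, black bars at list medians and a dashed line at the median of all genes tested. In the left panel, WT MEFs with DOX minus without, the other desmosome genes have a median of 2.65 and the repressors -2.18; in the right panel, the Nanog KO array minus WT MEFs with DOX, the medians are -1.28 and 2.44, and the median gene is at 0.76.

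Genes were ranked by how closely their values over the 7 arrays followed each of 5 members, by Pearson's r among 4085 genes with a range of at least 2. Nearest to Cdh1 were Zfp750, a regulator of epidermal differentiation (r = 0.991), Shroom3, an actin-binding protein of apical junctions (0.991), Tbc1d8 (0.991), the membrane protease gene St14 (0.981) and L1td1 (0.980). Nearest to Dsp were Lama3, a laminin chain of epithelial basement membranes (0.980), Casz1 (0.977), Cgn, cingulin of tight junctions (0.974), Atg9b (0.971) and Hsd17b2 (0.968).

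The other cadherins had different neighbours. Cdh3 was followed most closely by Rspo3, a Wnt signal enhancer (0.997), Hgf, hepatocyte growth factor (0.992), Kng1 (0.991), Clca3a1 (0.990) and Kng2 (0.989). For Cdh11 these were Lbh (0.995), Hs6st2 (0.995), Cyp1b1 (0.992), Grb14 (0.991) and Loxl1 (0.991), and for Cdh2 Ptchd1 (0.972), Pcdhb22 (0.965), Amot (0.961), Lrrn3 (0.959) and Slpi (0.958). With so few arrays many genes reach such values. Without the Nanog KO array 12 of these 25 genes stayed among the nearest 5, with 2 or 3 for each member. With aligned medians 14 did: 5 of 5 for Cdh3, 3 each for Cdh1, Cdh2 and Cdh11, and 0 for Dsp, whose named neighbours all depend on the scaling.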

How the data were processed

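Values are the authors' log2 signals, summarised by RMA in Expression Console (Affymetrix) according to the submitters' processing notes, and were used as deposited. Software versions and genome build: not given in the sources used here. There were 21811 rows and 0 missing values. Rows were named through GEO's platform annotation: 14894 had 1 symbol, 925 had several and 5992 were unnamed here. Rows with several symbols were left out, 3 of which list Cdh11. Where a gene had several rows, the one with the highest mean stood for it. Depth has no counterpart on arrays, and their number, 1 per condition, limits the precision.

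The members and gene lists were chosen with earlier results of these data known. No test was made. All members are named. From each list, up to 4 genes at 2-fold or more with the largest differences per comparison are named, besides Kdm6a, Nanog, Pou5f1 and, for 5 members, the 5 nearest genes by r; Ctnna1, Ctnnb1 and Ctnnd1, and genes within 2-fold named to complete a list (Krt7, Krt8, Krt17, Pkp2, Cdh6), were chosen after their values were seen. Counting code was tested on simulated data. Alternatives were 2 array scalings, 2 floors, a 1.5-fold threshold, row means, for r, leaving out the Nanog KO array, and, chosen after seeing the data, exchanged DOX labels of the KO MEF libraries. Promoter sequences are RefSeq's (GRCm38.p6), with entries for 2 of the 10 members. Python 3.11.15 with numpy 2.4.6, pandas 2.3.3 and matplotlib 3.10.9 was used.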

Additional observations from a re-analysis of the deposited data

Results flagged for a closer look

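For 5 genes the DOX difference was 2-fold or more in size in both genotypes and of opposite sign, 1 pair of arrays each. The difference of the differences, labelled KO minus WT, was -9.97 for Cdh1, -8.81 for Dsp, -5.96 for Pkp1, -5.60 for Dsc2 and 4.18 for Cdh3. With the DOX labels of the KO libraries exchanged, an alternative chosen after seeing the data, these values would be -1.93, -3.91, -2.32, -3.07 and 0.60. All 5 genes would then differ the same way in both genotypes. That outcome is fixed by the choice of genes with opposite signs, because the exchange turns each KO sign, so it says nothing about the labels. The difference was not tested, the KO libraries go against their DOX labels, and Dsc2 lay under the floor in both of them.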

How the results depend on the processing

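With the floor at the 60th percentile (8.48), the genes differing 2-fold fell from 2 to 1 between the ESC libraries, from 4 to 2 between WT and labelled KO MEFs without DOX and from 5 to 3 between the MEF libraries labelled KO. The nearest genes by r that stayed were 12 of 25 without the Nanog KO array and 14 with aligned medians. All other counts of the 10 genes in either direction together stayed within 1.5 times under each scaling, floor and threshold tried. Split by direction, the higher genes on the Nanog KO array went from 3 to 1 against WT MEFs with DOX under both scalings, and from 5 to 3 against WT MEFs without DOX at the higher floor. Between WT and labelled KO MEFs without DOX, the lower genes went from 1 to 0 under both scalings and the higher from 3 to 1 at that floor, between the libraries labelled KO the lower went from 3 to 1 there, and at 1.5-fold WT ESCs had 1 gene higher than WT MEFs with DOX in place of 0. Of 90 single differences, 6 calls changed with aligned medians and the same number with quantile normalization, 5 of them on the Nanog KO array under either scaling; no called difference changed sign. No paired analysis was possible because no condition had a second array.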
